A study of Homo sapiens with 12 samples.

Results

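Fibroblast growth factor (FGF) signalling was described through 10 genes, chosen by symbol for their known roles, with earlier results of these data known. These were the ligand FGF2, the receptors FGFR1, FGFR2 and FGFR3, the feedback inhibitors SPRY1, SPRY2, SPRY4 and DUSP6, and the transcription factors ETV4 and ETV5. They are 10 of the 59050 gene symbols in the count table, and all were tested in each of the comparisons below. The cells were HUES8, an established line of human embryonic stem cells (ESC), wild type in every group, and neural progenitor cells (NPC) derived from it. The ESC were kept in mTeSR1 medium on Matrigel. The NPC had been through 7 days of neural induction by dual SMAD inhibition, with 2.5 uM SB431542 (an inhibitor of the activin and Nodal receptors) and 0.05 uM LDN193189 (an inhibitor of BMP receptors), and without SB431542 for the last 2 days. Total RNA depleted of rRNA and ribosome-bound RNA were each sequenced in 3 libraries per state, which gave 4 groups and 12 libraries.

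FGF ligands bind receptor tyrosine kinases on the cell surface, which act through RAS, RAF, MEK and ERK kinases. Active ERK raises transcription of the ETS factors ETV4 and ETV5 and of its own inhibitors, the Sprouty proteins and the phosphatase DUSP6, so these genes are widely used as readouts of the pathway. In human embryonic stem cells FGF2 in the medium supports self-renewal, and in the developing neural tube FGF receptors act in induction, patterning and progenitor growth.

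The RNA libraries held 19529738 to 35117370 counts and the ribosome-bound libraries 2422756 to 4451196, so that 3 counts, the limit that a count of 0 allows, was worth 0.0838 to 0.153 CPM in RNA and 0.679 to 1.29 CPM in ribosome-bound RNA. CPM stands for counts per 1000000 counts of the library, whose size was adjusted by TMM within an assay, and is not corrected for gene length. The labels do not say that the libraries came from separate cultures, so p-values measure the spread between libraries, which may be technical. In each assay 1 ESC library stood apart. Total RNA of ESC replicate 3 correlated with replicates 1 and 2 at 0.97 and 0.963 over log2 CPM, against 0.996 between those, and ribosome-bound ESC replicate 2 correlated with replicates 1 and 3 at 0.923 and 0.938, against 0.969. Stem cell markers were lower in NPC for 6 of 6 genes in both assays, and neural progenitor markers were higher for 7 of 7 in RNA and 6 of 7 in ribosome-bound RNA, as the labels have it. Of 6 neural crest markers, 5 were higher in NPC in each assay, with a summed level of 36.7 to 49.5 CPM in the ESC RNA libraries and 261 to 276 CPM in the NPC RNA libraries. Summed levels of neuron markers in the RNA libraries went from 23.9 to 26.2 CPM in ESC to 313 to 344 CPM in NPC (1 gene higher and 3 lower). Trophoblast and amnion markers went from 59.3 to 66.4 CPM to 74.5 to 77.4 CPM (2 higher and 0 lower). Fibroblast and mesenchymal markers went from 549 to 731 CPM to 264 to 278 CPM (1 higher and 1 lower). In that last list mean RNA of THY1 went from 388 to 40.9 CPM and of COL1A2 from 235 to 192 CPM, while PDGFRA went from 3.19 to 7.42 CPM. COL1A1 had 34.6 and 31.3 CPM, and COL3A1 (0.750 and 0.482 CPM) and TWIST1 (0.0947 and 0.0948 CPM) were low in both states. The 6 mesoderm and endoderm markers summed to 11.4 to 12.8 CPM in total RNA of ESC and to 250 to 281 CPM in ribosome-bound RNA of ESC, against at most 0.488 and 4.17 CPM in NPC, with none at 0 in a group. Whether these other cell types were present, and their part in the values below, was not tested. In whole cultures such as these, fewer cells of a type and less RNA per cell cannot be told apart.

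Most of the genes fell from ESC to NPC, while the receptors rose in ribosome-bound RNA and, for FGFR3, in total RNA as well. In total RNA, 1 of the 10 (FGFR3) rose and 6 (FGF2, SPRY1, SPRY2, SPRY4, ETV4 and ETV5) fell at an adjusted p below 0.05 by edgeR's quasi-likelihood test with Benjamini-Hochberg adjustment over 18631 genes. Of all genes tested in RNA, 52.6% were called, 26.4% as higher in NPC and 26.2% as lower, so a call as such is common in this comparison. In ribosome-bound RNA all 3 receptors rose and 6 genes (FGF2, SPRY2, SPRY4, DUSP6, ETV4 and ETV5) fell, beside 61.8% of 12250 genes called, 31.6% higher and 30.3% lower. The median log2 fold change of the 10 genes was -0.51 in RNA and -0.79 in ribosome-bound RNA, and over all genes tested it was 0.03 and -0.01. The ESC and NPC libraries did not overlap for 8 of the 10 genes in RNA (62.8% of all genes tested) and for 8 of 10 in ribosome-bound RNA (67.1%).

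**Figure D1:**
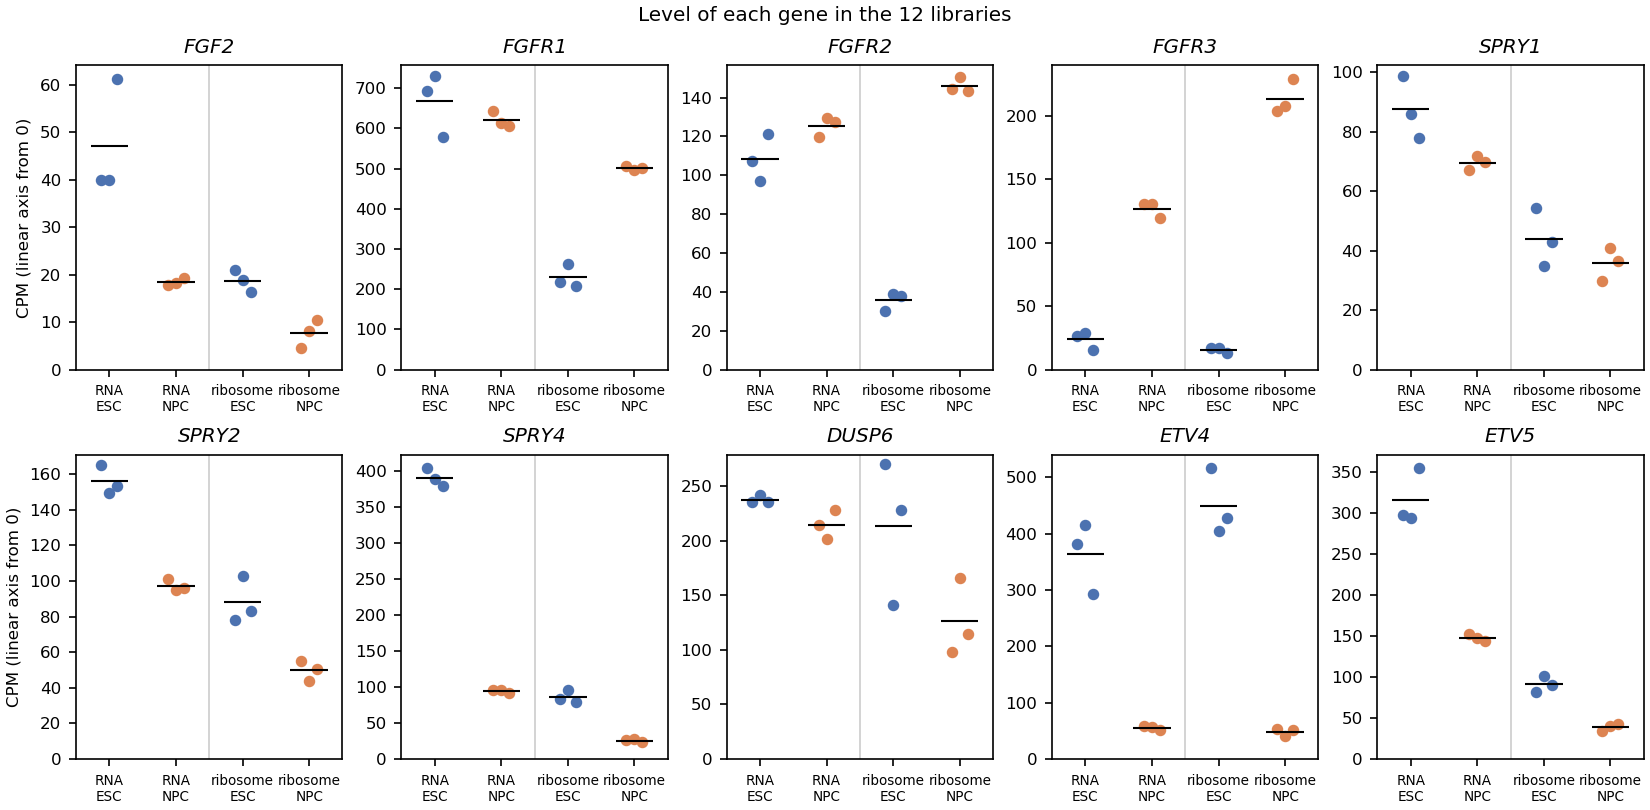
CPM (linear axis from 0, scaled per gene) of each of the 10 genes in the 12 libraries, by assay and state, with each point a library and each line the group mean. FGFR3 lies higher in all NPC libraries of both assays, FGFR1 and FGFR2 in the ribosome-bound libraries, and SPRY4, ETV4 and ETV5 lie lower in all NPC libraries.

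**Figure D2:**
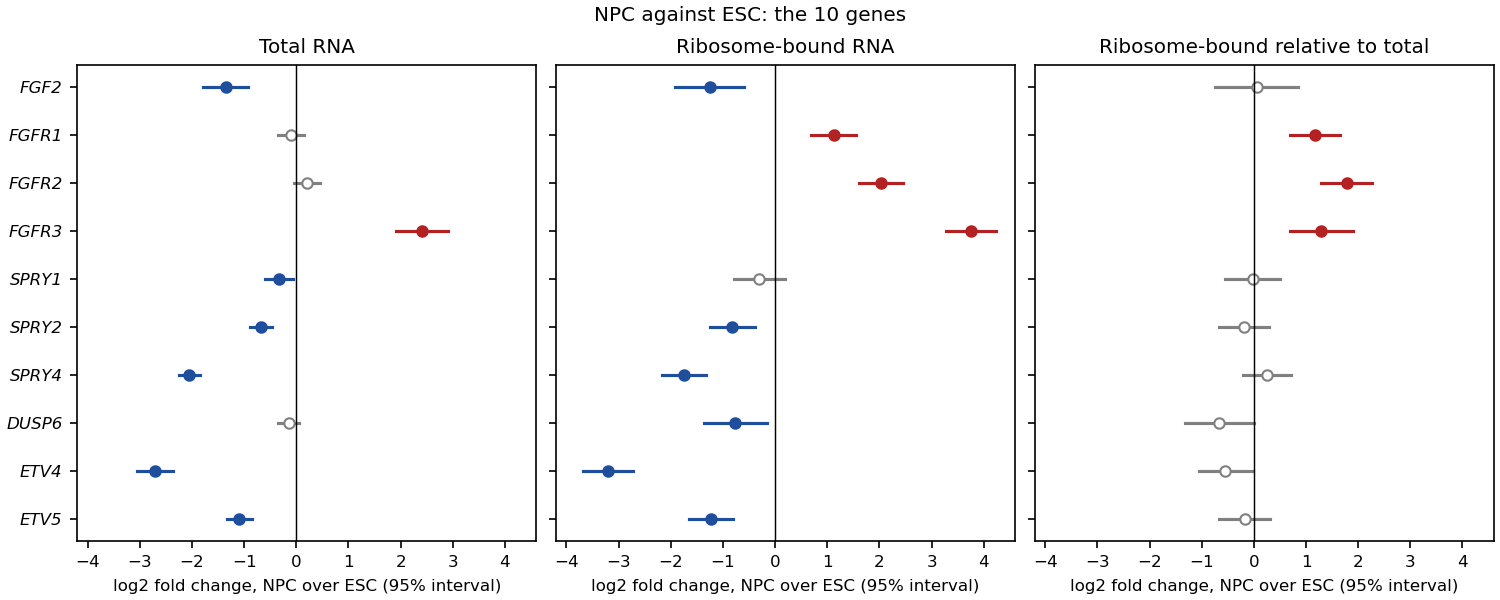
Log2 fold change of NPC over ESC with its 95% confidence interval for the 10 genes, in total RNA, in ribosome-bound RNA and as the change of the ratio between them, with filled points past the adjusted p threshold (red higher, blue lower). In the last, FGFR1, FGFR2 and FGFR3 lie above 0 at 1.17, 1.78 and 1.29.

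FGF2, the ligand supplied to stem cell cultures and also made by the cells, fell in both assays. Its total RNA was 39.9, 40.04 and 61.3 CPM in the ESC libraries and 17.7, 18.2 and 19.3 CPM in the NPC libraries. Ribosome-bound RNA was 20.9, 18.9 and 16.3 CPM in ESC and 4.49, 8.09 and 10.4 CPM in NPC, where it rested on 14, 29 and 46 counts. Every NPC library lay below every ESC library in both assays, and the highest RNA value came from ESC replicate 3. FGF2 was 2.55-fold lower in RNA (log2 fold change -1.35 ± 0.19 SE, edgeR adjusted p = 5.45e-04) and 2.39-fold lower in ribosome-bound RNA (-1.26 ± 0.31, edgeR adjusted p = 0.00369). The difference between the changes was 0.06 with a 95% interval of -0.73 to 0.85. FGF2 (chromosome 4, 122826682 to 122898236 in the RefSeq annotation of GRCh38.p14) shares 5660 bases with NUDT6, its antisense partner, which had 154 counts in the 3 ESC RNA libraries together and 396 in NPC. The use of strand in counting is not given here, and reads from that stretch cannot be assigned with certainty.

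FGFR3 was the 1 receptor that rose in total RNA. This receptor is expressed in the ventricular zone of the neural tube and is known as a marker of neural progenitors and astrocytes. Its RNA was 26.7, 29.0 and 15.8 CPM in ESC and 130, 131 and 120 CPM in NPC, and its ribosome-bound RNA was 17.5, 17.2 and 12.9 CPM in ESC and 204, 208 and 229 CPM in NPC. The states were far apart in every library, with the lowest ESC RNA value in replicate 3. FGFR3 was 5.32-fold higher in RNA (log2 2.41 ± 0.22 SE, edgeR adjusted p = 5.69e-05) and 13.5-fold higher in ribosome-bound RNA (3.76 ± 0.22, edgeR adjusted p = 2.97e-07).

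FGFR1, the main FGF receptor of stem cells, did not pass the test in total RNA: 693, 731 and 578 CPM in ESC and 643, 613 and 607 CPM in NPC. The ESC libraries lay on both sides of the NPC libraries. The log2 fold change was -0.10 with a 95% interval of -0.35 to 0.14 (edgeR adjusted p = 0.440), though without RNA ESC replicate 3 it was -0.20 and passed the test (edgeR adjusted p = 0.00466). Ribosome-bound FGFR1 was 219, 263 and 208 CPM in ESC and 506, 496 and 501 CPM in NPC, with no overlap. That was a 2.18-fold rise (log2 1.12 ± 0.20 SE, edgeR adjusted p = 4.55e-04).

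FGFR2, which is expressed in neuroepithelium and in many epithelia, likewise did not pass in RNA, with 107, 97.0 and 121 CPM in ESC and 120, 129 and 127 CPM in NPC. Here too the groups overlapped, and the log2 fold change was 0.21 (95% interval -0.04 to 0.46, edgeR adjusted p = 0.142). Without RNA ESC replicate 3 the value was 0.30 and passed (edgeR adjusted p = 8.15e-05). In ribosome-bound RNA, FGFR2 stood at 30.3, 38.7 and 37.8 CPM in ESC and at 144, 151 and 143 CPM in NPC. This was a 4.10-fold rise (log2 2.04 ± 0.19 SE, edgeR adjusted p = 4.99e-06) without overlap.

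All 3 receptors therefore gained more ribosome-bound RNA than total RNA. Translational efficiency, as the ratio of the ribosome-bound level to the total RNA level is called below, was tested for a change between states by the assay-by-state interaction of a fit on the 12 libraries. It rose 2.25-fold for FGFR1 (log2 1.17, 95% interval 0.70 to 1.65, edgeR adjusted p = 7.12e-04), 3.43-fold for FGFR2 (1.78, 1.30 to 2.26, edgeR adjusted p = 2.54e-05) and 2.45-fold for FGFR3 (1.29, 0.68 to 1.90, edgeR adjusted p = 0.00217). These 3 were the only ones of the 10 called as higher, and 0 were called as lower, beside 41.9% of 11866 genes called, 22.9% higher and 19.0% lower. At an unadjusted p below 0.05 another 2 would have passed as lower, DUSP6 (0.0493) and ETV4 (0.0384), and DESeq2 called both. The median over the 10 genes was 0.02, and over all genes tested -0.05. The receptors lay at the 82.5th (FGFR1), 92.1st (FGFR2) and 84.9th (FGFR3) percentile of all genes. Each of the 3 calls held without any 1 of the 12 libraries and under 8 other processing choices.

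The levels behind this change show FGFR1 and FGFR2 with low ratios in ESC, and FGFR3 with a ratio near the middle of all genes. In ESC, log2 of ribosome-bound over total CPM (0.5 added to each, group means, with the SD over the 3 library numbers) was -1.54 ± 0.11 for FGFR1 and -1.59 ± 0.25 for FGFR2. Those are the 19.0th and 18.0th percentile of 11866 genes, whose median was -0.38. In NPC they stood at -0.31 ± 0.04 and 0.22 ± 0.05, the 47.3rd and 65.6th percentile, where the median of all genes was -0.24. FGFR3 went from -0.57 ± 0.23 to 0.75 ± 0.16, from the 44.4th to the 80.2nd percentile. The ratio is relative, since each library is scaled to its own total, and RNA and ribosome-bound libraries were joined by number only to show their spread. The assays also differed in marker levels, in both directions and in both states. In ESC the mesoderm and endoderm sums given above were higher in ribosome-bound RNA, while mean POU5F1 was lower (942 CPM in total RNA and 75.3 CPM in ribosome-bound RNA). In NPC mean DPPA4 was lower in ribosome-bound RNA (146 and 40.4 CPM) and L1TD1 higher (43.3 and 102 CPM). The part of these differences in the ratios and in the efficiency changes was not tested.

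**Figure D3:**
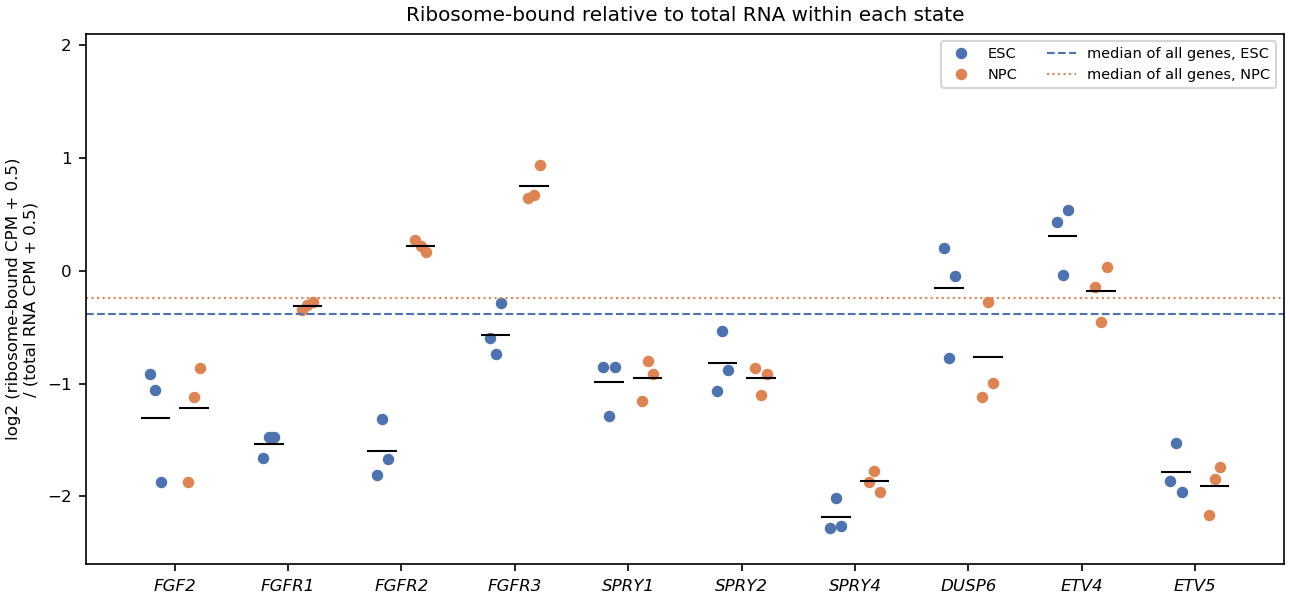
Log2 ratio of ribosome-bound to total RNA (CPM with 0.5 added) of each of the 10 genes in ESC and NPC, with points for library numbers 1 to 3, black lines for the ratio of group means and horizontal lines for the median of all genes in each state. The 3 receptors lie higher in NPC, while SPRY4 and ETV5 lie low in both states, at -2.18 and -1.78 in ESC and -1.86 and -1.91 in NPC.

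**Figure D4:**
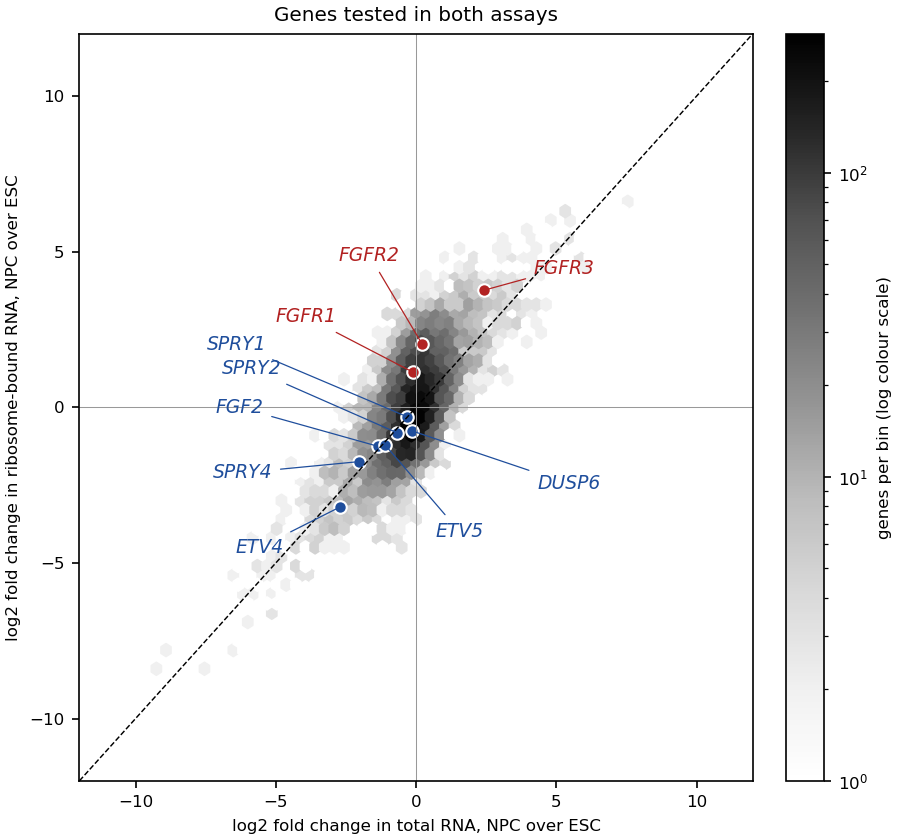
Log2 fold change of NPC over ESC in ribosome-bound RNA (vertical) against total RNA (horizontal) for the 11866 genes tested in both, as bins shaded by the number of genes (log colour scale), with the dashed line marking equal change. FGFR1 and FGFR2 lie near 0 in RNA and above the line, SPRY1, SPRY2 and ETV5 lie close to it, and DUSP6 lies below it (-0.15 in RNA and -0.76 in ribosome-bound RNA).

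The Sprouty proteins, which block the signal between receptor and RAF, differed in how far they fell. SPRY4 fell most: 404, 389 and 379 CPM of RNA in ESC against 96.2, 95.4 and 91.2 CPM in NPC, and 82.8, 96.0 and 78.8 against 26.0, 27.6 and 23.1 CPM in ribosome-bound RNA. The groups were well apart, with little spread among the libraries of a state. The fall was 4.15-fold in RNA (log2 -2.05 ± 0.09 SE, edgeR adjusted p = 1.24e-06) and 3.36-fold in ribosome-bound RNA (-1.75 ± 0.19, edgeR adjusted p = 1.54e-05).

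SPRY2, the most studied inhibitor of the family, fell less. Its RNA was 165, 149 and 154 CPM in ESC and 101, 94.98 and 96.0 CPM in NPC, and its ribosome-bound RNA was 78.4, 103 and 83.3 CPM in ESC and 55.1, 44.1 and 50.7 CPM in NPC. No NPC library reached an ESC library in either assay. The falls were 1.604-fold in RNA (log2 -0.68 ± 0.09 SE, edgeR adjusted p = 4.75e-04) and 1.76-fold in ribosome-bound RNA (-0.82 ± 0.20, edgeR adjusted p = 0.00340).

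SPRY1 changed least of the 3. Its RNA was 98.8, 86.0 and 77.7 CPM in ESC and 67.1, 71.9 and 69.7 CPM in NPC, a 1.26-fold fall with no overlap (log2 -0.33 ± 0.12 SE, edgeR adjusted p = 0.0422). This call was lost with the replicate number as a block (edgeR adjusted p = 0.0530) and without any 1 of ESC replicate 1 (edgeR adjusted p = 0.113) and NPC replicates 1, 2 and 3 (0.151, 0.112 and 0.130). It was also lost under upper-quartile scaling (edgeR adjusted p = 0.0632), with no filter on low counts (0.0766) and in a fit over all 12 libraries (0.151). Ribosome-bound SPRY1 overlapped between 54.3, 34.9 and 42.9 CPM in ESC and 29.8, 41.0 and 36.7 CPM in NPC. It did not pass the test (log2 -0.30, 95% interval -0.79 to 0.19, edgeR adjusted p = 0.261), but without ribosome-bound ESC replicate 2 it was -0.44 and did (edgeR adjusted p = 0.0307).

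DUSP6, the cytoplasmic phosphatase that removes the activating phosphates of ERK, was called in ribosome-bound RNA and not in total RNA. The RNA values were 236, 242 and 235 CPM in ESC and 215, 202 and 228 CPM in NPC. Although all NPC values were the lower, the log2 fold change of -0.15 (95% interval -0.35 to 0.06) did not pass the test (edgeR adjusted p = 0.201), except without RNA ESC replicate 3 (-0.15, edgeR adjusted p = 0.0339). Ribosome-bound DUSP6 was 270, 141 and 228 CPM in ESC and 98.4, 166 and 114 CPM in NPC, and the low ESC value of replicate 2 lay under the high NPC value of replicate 2. The 1.69-fold fall passed the test (log2 -0.76 ± 0.27 SE, edgeR adjusted p = 0.0299). It no longer passed without ESC replicate 1 or 3 (edgeR adjusted p = 0.103 and 0.0812) or NPC replicate 1 or 3 (0.147 and 0.131). The ratio of ribosome-bound to total DUSP6 fell short of the threshold (log2 -0.66, 95% interval -1.32 to -0.00, edgeR adjusted p = 0.0978), and passed it without ribosome-bound ESC replicate 2 (-0.88, edgeR adjusted p = 0.00774) or NPC replicate 2 (-0.93, edgeR adjusted p = 0.0344).

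ETV4 and ETV5 are PEA3-type ETS factors, which carry the transcriptional output of FGF signalling. ETV4 had the largest fall of the 10 genes in both assays. Its RNA was 382, 415 and 293 CPM in ESC and 58.2, 57.1 and 50.7 CPM in NPC, and its ribosome-bound RNA was 517, 404 and 427 CPM in ESC and 52.6, 41.5 and 52.1 CPM in NPC. The lowest ESC library stayed several times above the highest NPC library. The falls were 6.57-fold (log2 -2.72 ± 0.15 SE, edgeR adjusted p = 4.00e-06) and 9.22-fold (-3.20 ± 0.22, edgeR adjusted p = 6.68e-07). The ratio between the assays changed by -0.54 (95% interval -1.06 to -0.03), which did not pass after adjustment (edgeR adjusted p = 0.0801) but did without ribosome-bound ESC replicate 2 (-0.61, edgeR adjusted p = 0.0291). ETV4 (chromosome 17, 43527846 to 43546340) shares 16954 bases of its span with DHX8, a helicase gene at a mean of 176 CPM in ESC RNA and 189 CPM in NPC RNA, and the share of reads split between them was not tested.

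ETV5 fell by less than ETV4 in both assays. Its RNA was 298, 294 and 355 CPM in ESC and 152, 147 and 144 CPM in NPC, and its ribosome-bound RNA was 81.8, 102 and 90.8 CPM in ESC and 33.7, 40.7 and 42.8 CPM in NPC. The states did not overlap in either assay. The falls were 2.13-fold in RNA (log2 -1.09 ± 0.10 SE, edgeR adjusted p = 7.57e-05) and 2.33-fold in ribosome-bound RNA (-1.22 ± 0.19, edgeR adjusted p = 2.11e-04).

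For the 4 feedback inhibitors, FGF2 and the 2 ETS factors, no change of translational efficiency passed the test. The values were -0.02 for SPRY1 (95% interval -0.55 to 0.51), -0.19 for SPRY2 (-0.66 to 0.28), 0.25 for SPRY4 (-0.20 to 0.70) and -0.18 for ETV5 (-0.67 to 0.32). These intervals do not show that the ratios were equal. SPRY4 and ETV5 had low ratios in both states: -2.18 ± 0.15 (SD, n = 3) and -1.78 ± 0.23 in ESC, the 9.36th and 14.8th percentile, and -1.86 ± 0.09 and -1.91 ± 0.22 in NPC, the 9.24th and 8.66th percentile. ETV4 had the highest ratio of the 10 in ESC, 0.31 ± 0.31, and stood at -0.18 ± 0.25 in NPC.

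By the RefSeq annotation of GRCh38.p14, FGFR2 lies on chromosome 10 (121478330 to 121598458), FGFR3 on chromosome 4 (1793293 to 1808867) and SPRY1 on chromosome 4 (123396795 to 123403760). SPRY2 lies on chromosome 13 (80335976 to 80341126), SPRY4 on chromosome 5 (142310430 to 142325021), DUSP6 on chromosome 12 (89347235 to 89352501) and ETV5 on chromosome 3 (186046314 to 186109089). FGFR2, FGFR3, SPRY1 and SPRY2 overlap no other entry of that annotation.

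Start-site sequences were found in the RefSeq table (GRCh38.p14) for 7 of the 10 genes and not for FGFR1, ETV4 and ETV5. Windows of 300 bases, 250 before the start site and 50 from it on, were searched on both strands for 3 motifs. These were the octamers bound by CIC, a repressor that ERK inactivates (TGAATGAA, TGAATGGA, TCAATGAA and TCAATGGA), the ETS core CCGGAA and the GC box GGGCGG. Over all 35116 windows of this length, 3.77% held a CIC octamer, 17.2% an ETS core and 45.0% a GC box. The first 280 bases are shown, with motif matches in capitals, for FGFR3, which rose most, and for DUSP6, the 1 gene of the 7 with a CIC octamer. SPRY2 and SPRY4 are shown as examples of genes whose falls in RNA passed the test. FGF2 and SPRY1 also fell past the test in RNA, and their windows are not shown.
FGFR3, chr4:1793043-1793322, + strand: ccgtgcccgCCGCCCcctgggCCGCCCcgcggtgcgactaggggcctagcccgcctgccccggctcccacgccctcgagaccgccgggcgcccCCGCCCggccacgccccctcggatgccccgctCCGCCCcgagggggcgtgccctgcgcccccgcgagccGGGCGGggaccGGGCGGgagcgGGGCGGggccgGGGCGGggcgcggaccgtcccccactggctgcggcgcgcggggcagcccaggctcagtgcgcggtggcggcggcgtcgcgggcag
SPRY2, chr13:80341097-80341376, - strand: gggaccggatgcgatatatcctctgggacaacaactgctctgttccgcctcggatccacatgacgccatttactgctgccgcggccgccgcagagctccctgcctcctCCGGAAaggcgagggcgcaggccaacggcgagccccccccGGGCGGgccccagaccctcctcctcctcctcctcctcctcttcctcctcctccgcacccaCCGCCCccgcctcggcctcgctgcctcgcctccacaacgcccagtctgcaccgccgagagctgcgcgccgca
SPRY4, chr5:142324218-142324497, - strand: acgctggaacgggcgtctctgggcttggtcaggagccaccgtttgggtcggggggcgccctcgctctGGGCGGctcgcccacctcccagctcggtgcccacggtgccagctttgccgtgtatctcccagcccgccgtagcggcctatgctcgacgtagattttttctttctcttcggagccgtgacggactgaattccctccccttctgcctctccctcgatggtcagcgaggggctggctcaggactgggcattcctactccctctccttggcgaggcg
DUSP6, chr12:89352472-89352751, - strand: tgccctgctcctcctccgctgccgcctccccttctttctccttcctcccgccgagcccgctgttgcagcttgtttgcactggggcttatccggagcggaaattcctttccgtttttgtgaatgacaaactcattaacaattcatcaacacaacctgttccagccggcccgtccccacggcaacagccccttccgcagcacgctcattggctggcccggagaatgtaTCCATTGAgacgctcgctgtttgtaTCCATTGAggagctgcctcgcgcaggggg

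The FGFR3 window was 86.4% G and C in the bases shown and held 8 GC boxes, 4 on each strand. The SPRY2 window shown (70.7% G and C) held 1 ETS core and 2 GC boxes, and the SPRY4 window (65.4%) held 1 GC box. The DUSP6 window (58.2%) held the CIC octamer in 2 copies, both read as TCCATTGA on the gene's strand, at -24 to -17 and 1 to 8 with the start site as 0. The table has 14 windows for the 7 genes, and those not shown are from FGF2, FGFR2, SPRY1 and SPRY2. The FGF2 window held 3 GC boxes. Of the 5 FGFR2 windows, 1 held 5 GC boxes, another held 1, and the rest held no motif searched. Of the 2 SPRY1 windows, 1 held 1 ETS core and 2 GC boxes and the other none, and the other two SPRY2 windows held 1 and 0 GC boxes and no ETS core. A match is a description of the letters and not of binding, which was not measured here.

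The 10 genes were compared by Pearson's r of log2(CPM + 0.5) across the 12 libraries, as a description, since the libraries share their assay and state and few patterns are possible. SPRY2, SPRY4 and ETV5 ran together, with r of 0.976 for SPRY2 and SPRY4, 0.971 for SPRY4 and ETV5 and 0.97 for SPRY2 and ETV5. FGF2 followed SPRY4 and ETV5 at 0.945 each. FGFR1 and FGFR2 had an r of 0.88, and FGFR3 ran against ETV4 at -0.966. Among 10753 genes searched, those most like a receptor were CERK (0.9965) and SCMH1 (0.994) for FGFR1, NFAT5 (0.9892) and TRIO (0.9841) for FGFR2, and CYTH2 (0.9894) and MCF2L (0.9891) for FGFR3. For the inhibitors they were RAD54L (0.9789) and TWNK (0.9784) for SPRY1, LINC01224 (0.995) and SLC7A1 (0.9899) for SPRY2, SLC7A1 (0.9953) and SEPHS1 (0.9947) for SPRY4, and FASTKD5 (0.9624) and RBM12 (0.9612) for DUSP6. FGF2 was most like AFG3L2 (0.984) and UBL3 (0.9755), ETV4 like NDRG2 and B3GNT7 (0.9906 each), and ETV5 like GPR176 (0.9962) and SLC38A1 (0.9912).

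The rest of the pathway was read from 6 lists of 89 genes in all, and their counts are to be read beside the shares of all genes called, 26.4% higher and 26.2% lower in RNA and 31.6% and 30.3% in ribosome-bound RNA. Of the 17 other secreted FGF ligands, 8 were tested in RNA, where 3 rose and 4 fell, and 5 in ribosome-bound RNA, where 1 rose and 3 fell. FGF8, the patterning signal of the anterior neural plate, rose from 3.22 ± 1.25 to 19.5 ± 0.747 CPM in RNA (SD, n = 3, log2 2.60, edgeR adjusted p = 1.03e-04) and from 29.4 ± 10.8 to 66.0 ± 4.03 CPM in ribosome-bound RNA (1.17, edgeR adjusted p = 0.00203). FGF4, a ligand of pluripotent cells, fell from 5.43 ± 0.626 to 0.333 ± 0.168 CPM in RNA (log2 -4.05, edgeR adjusted p = 3.02e-05), and in ribosome-bound RNA from 129 to 2 counts over the group, or 77.5 times as much in ESC (exact 95% counting interval 21.0 to 647). FGF19 fell from 55.9 ± 6.02 to 10.5 ± 0.301 CPM in RNA (log2 -2.42) and from 179 ± 75.8 to 24.5 ± 3.32 CPM in ribosome-bound RNA (-2.87). The stem cell markers and the mesoderm and endoderm markers given above fell as well. The part of any cell type in the falls of FGF4 and FGF19 was not tested. All 4 intracellular FGF homologous factors, which bind sodium channels and not FGF receptors, were tested in RNA, where 1 rose and 3 fell. The log2 fold change was -1.17 for FGF13 and -0.78 for FGF12, both past the test, and FGF12 rose in translational efficiency (0.96, edgeR adjusted p = 0.0138). FGF13 also fell in ribosome-bound RNA (-0.71, edgeR adjusted p = 0.0280), but not without ESC replicate 1 or 3 (0.0971 and 0.0727) or NPC replicate 1, 2 or 3 (0.0800, 0.0590 and 0.112).

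Of 17 other receptors and co-receptors, 14 were tested, of which 5 rose and 5 fell in RNA and 5 rose and 4 fell in ribosome-bound RNA. FGFR4, the remaining kinase receptor, fell in both: from 77.3 ± 30.5 to 31.4 ± 1.99 CPM in RNA (log2 -1.30, edgeR adjusted p = 0.00569) and from 95.2 ± 31.0 to 21.1 ± 4.91 CPM in ribosome-bound RNA (-2.17, edgeR adjusted p = 3.75e-05). Its translational efficiency had a log2 change of -0.94, opposite in sign to those of FGFR1, FGFR2 and FGFR3, which missed the threshold (edgeR adjusted p = 0.0685) and passed it without RNA ESC replicate 2 (0.0363) or ribosome-bound ESC replicate 1 (0.0405). Among the co-receptors, the heparan sulfate carriers GPC3 and SDC2 rose in RNA (log2 2.62 and 1.67) and in ribosome-bound RNA (2.05 and 2.01), and FLRT3 rose by 4.44 and 1.81. SDC1, another heparan sulfate carrier, fell in RNA (log2 -0.58, edgeR adjusted p = 0.0260) and in ribosome-bound RNA (-0.79). Of the heparan sulfate carriers outside the rule for named genes, GPC4 (-0.49 and -0.64) and SDC4 (-0.30 and -0.64) fell in both assays. SDC3 rose in RNA only (0.62), and GPC1 and GPC6 were not called in either.

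Of the 21 adaptors and ERK cascade genes, 3 rose and 3 fell in RNA (14.3% each, beside 26.4% and 26.2% of all genes), and 9 of 20 rose and 1 fell in ribosome-bound RNA (45.0% and 5.00%, beside 31.6% and 30.3%). In RNA, the receptor adaptors FRS2 and FRS3 rose (log2 0.91 and 1.43), and GRB2, which links receptors to RAS activation, fell (-0.55). KSR1, a scaffold of the cascade, went from 14.3 ± 3.90 to 73.3 ± 6.30 CPM in ribosome-bound RNA (log2 2.33, edgeR adjusted p = 7.00e-06) and had 84.6 ± 10.4 and 98.5 ± 9.07 CPM in RNA (0.22, edgeR adjusted p = 0.180). SOS1, the exchange factor that loads RAS, rose by 1.47 in ribosome-bound RNA against -0.33 in RNA, which was not called. Translational efficiency rose for both, by 2.06 (KSR1) and 1.76 (SOS1), and fell for MAPK3, which encodes ERK1 (-1.08, edgeR adjusted p = 0.0255). MAPK3 also fell in ribosome-bound RNA (-1.16, edgeR adjusted p = 4.01e-04). Its call in efficiency was lost without RNA NPC replicate 1 (edgeR adjusted p = 0.0608) or ribosome-bound NPC replicate 1 or 3 (0.0658 and 0.0511). In efficiency 4 of 20 were higher and 1 lower (20.0% and 5.00%, beside 22.9% and 19.0% of all genes), with a median of 0.36 beside -0.05 for all genes.

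Among 14 other feedback inhibitors, 13 were tested in RNA, with 2 higher and 5 lower (15.4% and 38.5%, beside 26.4% and 26.2% of all genes), and 11 in ribosome-bound RNA, with 5 higher and 2 lower (45.5% and 18.2%, beside 31.6% and 30.3%). The ERK phosphatases DUSP4 and DUSP5, both nuclear, moved in opposite directions. DUSP4 rose from 10.2 ± 0.420 to 48.5 ± 1.44 CPM in RNA (log2 2.26, edgeR adjusted p = 2.83e-06) and by 0.96 in ribosome-bound RNA. DUSP5 fell from 142 ± 18.5 to 31.3 ± 2.17 CPM in RNA (-2.18, edgeR adjusted p = 6.51e-06) and in ribosome-bound RNA (-2.12). The Sprouty relative SPRED1 rose in ribosome-bound RNA (1.89, edgeR adjusted p = 6.01e-05) and in translational efficiency (1.65, edgeR adjusted p = 2.74e-04), with 0.20 in RNA, which was called only without RNA ESC replicate 3 (0.31, edgeR adjusted p = 8.11e-05) among the libraries left out in turn. SPRED3 rose by 1.40 in ribosome-bound RNA, but not without ESC replicate 1 or NPC replicate 2 (edgeR adjusted p = 0.0717 and 0.0584). CBL, a ubiquitin ligase of receptors, fell in RNA (-0.82) and ribosome-bound RNA (-1.30), and LRIG1 rose by 0.41 and 0.80. In efficiency DUSP4 fell (-1.35, edgeR adjusted p = 0.00225) and DUSP7 rose (1.34, edgeR adjusted p = 0.0146), the latter not without ribosome-bound ESC replicate 3 or NPC replicate 3 (0.0527 and 0.0686).

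The 16 genes listed as other ERK and FGF target genes moved in both directions. In RNA 5 rose and 7 fell (31.2% and 43.8%, beside 26.4% and 26.2% of all genes). In ribosome-bound RNA 7 of 15 rose and 4 fell (46.7% and 26.7%, beside 31.6% and 30.3%). The list also holds transcription factors of the pathway (CIC, ELK1 and ELK3) and BCL2L11. Its counts therefore do not stand for genes that ERK raises. ETV1, the third PEA3-type factor, fell like ETV4 and ETV5, from 77.6 ± 14.5 to 22.6 ± 1.48 CPM in RNA (log2 -1.78, edgeR adjusted p = 4.58e-05) and in ribosome-bound RNA (-1.29). EGR1, an immediate early gene of ERK signalling, rose from 13.8 ± 1.24 to 72.4 ± 6.77 CPM in RNA (2.39, edgeR adjusted p = 4.00e-06) and from 4.83 ± 2.04 to 73.6 ± 12.7 CPM in ribosome-bound RNA (3.87, edgeR adjusted p = 1.20e-06). EPHA4, an ephrin receptor of the neural tube, rose by 4.01 in RNA and 3.17 in ribosome-bound RNA, and was the 1 gene of the list whose efficiency fell (-0.89, edgeR adjusted p = 0.00637). MYC fell in both assays (-1.81 and -1.01), as did IER3 (-1.22 and -1.33), and ELK3 fell in RNA (-1.51) while its efficiency rose (2.11, edgeR adjusted p = 7.82e-04).

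**Figure D5:**
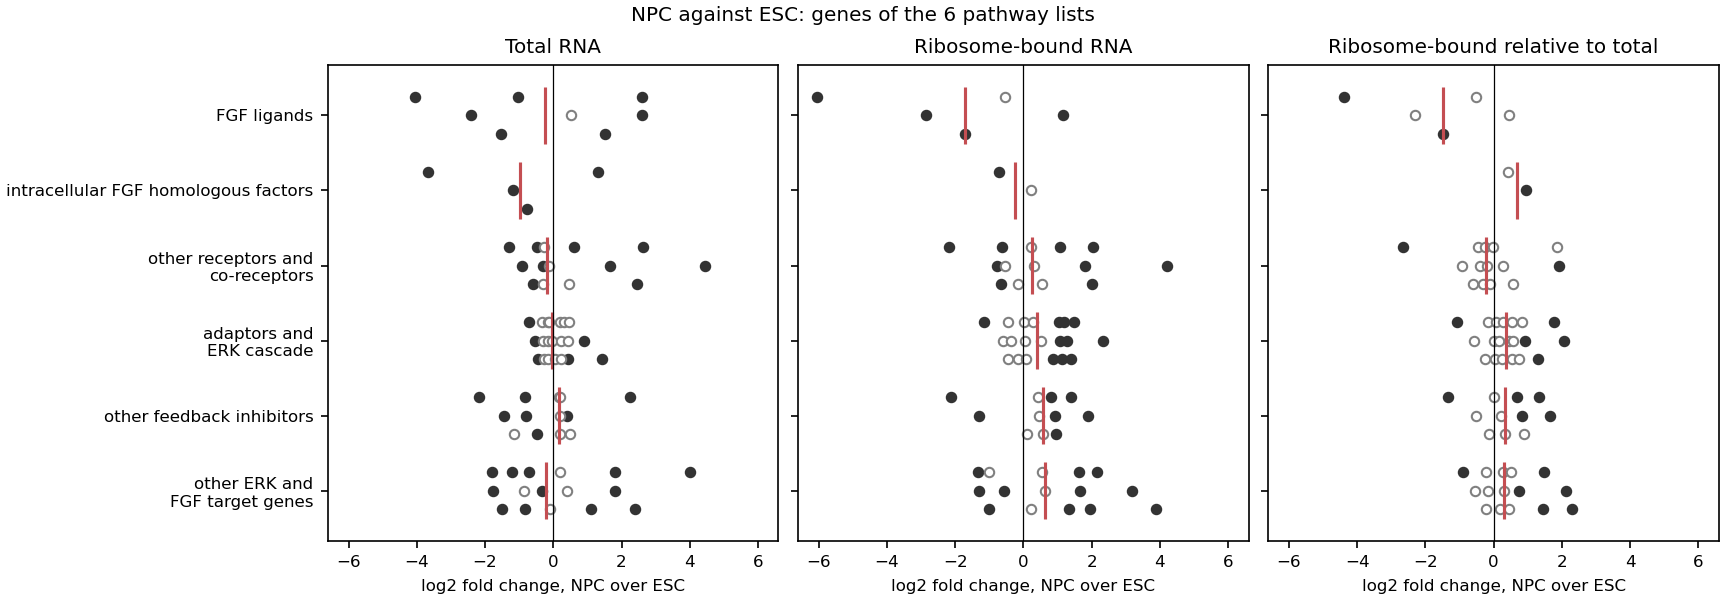
Fitted log2 fold change of NPC over ESC for each tested gene of the 6 pathway lists, in total RNA, ribosome-bound RNA and their ratio, with filled points past the adjusted p threshold and red lines at list medians. Adaptors and ERK cascade genes crowd around 0 in RNA (15 of 21 not called), and 9 of 20 lie higher in ribosome-bound RNA.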

How the data were processed

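The authors deposited whole-number counts per gene symbol for the 12 libraries. Tools named in the submitters' processing notes are featureCounts 1.6.4, STAR 2.7.1a, Bowtie 1.2 and cutadapt 1.18, with builds hg38 and GRCh38. The sources used here do not give their roles, the annotation, the use of strand or how ribosomes were isolated.

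NPC was compared with ESC by edgeR 4.0.16 (R 4.3.3; TMM, filterByExpr, quasi-likelihood F test, Benjamini-Hochberg over all genes tested, threshold 0.05), for each assay on its 6 libraries and, for translational efficiency, as the interaction of assay and state over 12. The standard error is the size of the log2 fold change over the square root of F. DESeq2 1.42.0, limma 3.58.1, other scalings, no filter, leaving out each library and a replicate block were alternatives. The fits were also run on simulated counts with known changes, and the outcome is not given here. Those counts held no library that stood apart, unlike these data. Tables were made with Python 3.11.15, and figures with matplotlib 3.10.9. Intervals of count ratios (95%, exact) and the limit of 3 counts cover counting error only.

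The genes, lists and tests were chosen with earlier results of these data known. Every gene of the 10 was named. From each pathway list up to 2 rises and 2 falls past the threshold of largest log2 change per comparison were named, provided that the higher state reached a mean of 5 CPM (for efficiency, that all 4 groups did), and for likeness the 2 genes of highest r with at least 10 CPM in a group. A gene that overlaps one of the 10 was named where a result turns on it. Of the genes chosen by the rule, 1 is not reported here.

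As to pairing, RNA libraries of the same number deviated together from their group means (r of 0.49, 0.349 and 0.718 for numbers 1, 2 and 3 over 9878 genes), which comes from the data and not from the labels. Only number 3 stood apart: ESC 2 with NPC 1 (0.512) and ESC 1 with NPC 2 (0.355) were as high as numbers 1 and 2 with themselves. The ribosome-bound libraries did not.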

Additional observations from a re-analysis of the deposited data

Results flagged for a closer look

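FGFRL1, a receptor without a kinase domain, moved in opposite directions in the 2 assays. It fell in total RNA from 37.6 ± 15.4 to 20.0 ± 2.03 CPM (SD, n = 3, log2 -0.91, edgeR adjusted p = 0.0318) and rose in ribosome-bound RNA from 7.73 ± 3.07 to 15.9 ± 2.04 CPM (1.07, edgeR adjusted p = 0.00946). The difference, tested as the interaction of assay and state, was 1.93 ± 0.44 SE (edgeR adjusted p = 0.00245). The fall in RNA was lost under limma-voom (adjusted p = 0.0548) and without RNA ESC replicate 1 or 2 or NPC replicate 1, 2 or 3 (edgeR adjusted p = 0.0774, 0.0818, 0.0776, 0.0767 and 0.105).

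FOS, an immediate early gene of ERK signalling, did likewise. It fell in total RNA from 80.9 ± 13.8 to 49.7 ± 3.17 CPM (log2 -0.70, edgeR adjusted p = 0.00413) and rose in ribosome-bound RNA from 52.7 ± 8.53 to 166 ± 7.54 CPM (1.65, edgeR adjusted p = 2.40e-05), with a difference of 2.30 ± 0.23 SE (edgeR adjusted p = 3.60e-06).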

How the results depend on the processing

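Leaving out each library in turn gave 1 to 2 members higher in RNA (2 without RNA ESC replicate 3, which brought in FGFR2) and 0 to 2 members lower in translational efficiency (2 without ribosome-bound ESC replicate 2, and 1 without ribosome-bound NPC replicate 2). Calls of members as lower in each assay also moved. SPRY1 lost its call in RNA, and DUSP6 in ribosome-bound RNA, in 4 of 6 such fits. Without RNA ESC replicate 3, FGFR1 and DUSP6 were called as lower in RNA. Without ribosome-bound ESC replicate 2, SPRY1 was called as lower in ribosome-bound RNA. Efficiency had 2 members lower at an adjusted p threshold of 0.1 and 2 under DESeq2, against 0. Values of efficiency near 0 changed sign, with no test passed: FGF2 was -0.015 under DESeq2, -0.012 with RLE scaling, -0.030 under limma-voom, -0.017 with upper-quartile scaling and -0.24 to 0.31 leaving out each library, and SPRY1 was 0.011 with no filter, 0.0050 with TMM within each assay (an alternative chosen after seeing the data) and -0.15 to 0.15 leaving out each library. The cause was not tested. Of 216 counts in the pathway lists under DESeq2, limma-voom and leaving out each ESC library in turn, 195 stayed within 1.5 times. The other alternatives were not applied to these counts.

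With the replicate block, FGF2 efficiency was -0.021, FGFR4 efficiency passed the test (-0.99, edgeR adjusted p = 0.0247), SPRY1 lost its call in RNA (edgeR adjusted p = 0.0530) and DUSP6 lost its call in ribosome-bound RNA (edgeR adjusted p = 0.0892), as did FGF13 (0.0695), while no other call given here changed. The libraries share only a number in the ribosome-bound assay.

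The ribosome-bound depth limits FGF2 in NPC, which rested on 14 to 46 counts a library. Only 1 cell line was used, and 1 ESC library of each assay stood apart.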

Other observations

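FGF17, a ligand of the FGF8 subfamily, fell outside the rule for named genes and was chosen after its values were seen. Its total RNA was 0.752 ± 0.209 CPM in ESC and 4.67 ± 0.652 CPM in NPC (SD, n = 3, log2 2.61, edgeR adjusted p = 6.67e-05), and its ribosome-bound RNA was 40.2 ± 4.74 CPM in ESC and 12.01 ± 2.35 CPM in NPC (-1.73, edgeR adjusted p = 5.81e-05). The difference between the assays was -4.39 ± 0.34 SE (edgeR adjusted p = 9.97e-07). Mesoderm and endoderm markers were likewise far higher in ribosome-bound than in total RNA of ESC. Examples were MIXL1 (6.03 ± 1.23 CPM in total RNA, 172 ± 44.9 CPM in ribosome-bound RNA) and EOMES (3.54 ± 0.883 and 49.0 ± 14.9 CPM). The pattern was not particular to those markers. The neural progenitor marker OTX2 (8.68 ± 0.844 and 49.6 ± 3.39 CPM) and FGF8 (3.22 ± 1.25 and 29.4 ± 10.8 CPM) were also higher. SOX1, of the same list as OTX2, was lower (2.94 ± 0.26 and 1.97 ± 0.16 CPM). Among the stem cell markers NANOG (433 ± 23.0 and 24.2 ± 0.981 CPM), POU5F1 (942 ± 345 and 75.3 ± 10.5 CPM) and TDGF1 (696 ± 40.1 and 49.0 ± 14.6 CPM) went the other way. So did DPPA4 (760 ± 40.4 and 326 ± 21.0 CPM) and ZFP42 (236 ± 13.2 and 170 ± 62.3 CPM), while L1TD1 alone did not (317 ± 86.1 and 460 ± 211 CPM). Whether these values are related was not tested.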
